A study of Arabidopsis thaliana with 9 samples.

Results

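The genes described here are the cyclins, cyclin-dependent kinases (CDKs), CDK regulators, kinesins and core histones measured in *Arabidopsis* leaves after contact with *P. brassicae* eggs, read as a record of leaf cell division. Members are the genes whose deposited description contains the words cyclin, cyclin-dependent, kinesin, Histone superfamily or histone H, and 105 of the 17605 genes of the table met this rule. By role they comprised 11 A and B type cyclins, 7 D type cyclins, 11 other cyclins, 2 B type CDKs, 4 other CDKs, 7 CDK regulators, 19 kinesins, 11 H2A, 8 H2B, 9 H3 and 8 H4 genes, 1 linker histone and 7 genes that the wording of their description brought in. Core histone classes were assigned from descriptions and symbols. Translated coding sequences were aligned to 1 member of each class, and all 36 core histone genes were nearest to their assigned class. For the reference members and their identical copies this was fixed in advance. The rule did not catch the main CDK gene, *CDKA;1*, and *CYCB1;1* and *CDKB1;1* were not analysed here.

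Leaves came from 5-week-old Col-0 plants in 3 groups of 3 libraries, from 3 independent experiments. Control plants were untreated. Oviposited plants spent 24 hours with butterflies, and 4 plants that carried 1 egg batch on each of 2 leaves were kept for 4 more days until the eggs were taken off just before hatching. Egg extract (EE), a crude extract of the eggs, was spotted as 2 drops of 2 µL under each of 2 leaves of 4 plants and left for 5 days. The labels name no mock treatment, so control leaves had neither drops nor butterflies. Values are log2 normalized counts (CPM, counts scaled to library size). The reads recovered from them, summed over the genes of the table, came to between 37348236 and 47057692 per library. All 3 genes that the study uses as markers of the egg response (*PR1*, *SAG13* and *TI*, which it chose on these samples) were called higher in both treatments, with log2 fold changes from 6.08 to 10.65.

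Cyclins are regulatory subunits that switch on CDKs. D type cyclins with CDKA act on the retinoblastoma pathway at the start of the cycle and release E2F factors, which turn on genes of DNA replication. Core histones of the replication-coupled kind are made when DNA is copied, whereas A and B type cyclins, B type CDKs and the kinesins of spindle and phragmoplast serve later, up to mitosis and cytokinesis, where MYB3R factors bind elements with the core AACGG. In a full-grown *Arabidopsis* leaf most cells have left the cycle or copy their DNA without dividing, and the stomatal lineage is among the last to divide. Since leaves were ground whole, fewer dividing cells and less RNA per cell cannot be told apart.

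The letters these factors are known to bind were searched in the 250 bases upstream of each gene start on both strands, and are shown for a cyclin of mitosis, a D type cyclin that turns up below, a replication-coupled H3 gene and an H4 gene. Windows follow the gene starts of the deposited table on TAIR10, and the sequence is that of RefSeq TAIR10.1. Capitals mark AACGG or its reverse complement CCGTT, the E2F letters (TTTCCCGC, TTTGGCGC, TTTCGCGC or TTTGCCGC) or the histone octamer CGCGGATC.
CYCB1;2 (chr5:1861650-1861899, minus strand): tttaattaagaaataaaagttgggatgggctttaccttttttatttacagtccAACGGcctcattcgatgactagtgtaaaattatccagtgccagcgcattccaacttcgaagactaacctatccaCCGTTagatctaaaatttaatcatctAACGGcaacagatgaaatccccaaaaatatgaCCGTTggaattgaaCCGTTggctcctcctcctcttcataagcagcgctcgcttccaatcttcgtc
CYCD3;1 (chr4:16357389-16357638, plus strand): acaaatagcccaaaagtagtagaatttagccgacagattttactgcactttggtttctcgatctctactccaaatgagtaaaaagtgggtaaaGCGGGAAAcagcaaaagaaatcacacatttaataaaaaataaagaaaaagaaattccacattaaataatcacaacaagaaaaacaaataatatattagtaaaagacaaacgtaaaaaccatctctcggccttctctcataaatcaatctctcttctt
AT1G09200, H3.1 (chr1:2972200-2972449, minus strand): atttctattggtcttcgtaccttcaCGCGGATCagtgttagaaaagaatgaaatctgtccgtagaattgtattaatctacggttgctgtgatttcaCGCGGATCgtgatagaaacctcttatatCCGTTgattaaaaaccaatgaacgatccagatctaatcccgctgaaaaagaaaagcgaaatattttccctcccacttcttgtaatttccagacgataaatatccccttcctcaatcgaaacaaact
AT3G45930, H4 (chr3:16883066-16883315, plus strand): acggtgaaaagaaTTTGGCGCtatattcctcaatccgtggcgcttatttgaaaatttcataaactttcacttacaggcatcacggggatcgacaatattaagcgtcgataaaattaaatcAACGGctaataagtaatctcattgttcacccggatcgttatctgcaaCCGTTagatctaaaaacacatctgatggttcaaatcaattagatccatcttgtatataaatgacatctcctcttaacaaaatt

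AACGG stood 5 times in the window of *CYCB1;2*. It was present in 53 of 105 member windows (50.5%) and in 4252 of 17523 windows over all nuclear genes of the table (24.3%). Among core histones 27 of 36 windows held it, with 8 of 8 at H4 genes and 5 of 5 at H3.1 genes, whereas 4 of 11 A and B type cyclins did. The histone octamer was found in 11 member windows (10.5%), every one of them at a core histone gene, and in 27 windows of all genes (0.154%). The E2F letters occurred in 5 member windows (4.76%, against 1.74% of all genes), those of *CYCD3;1*, *CYCD3;3*, *CYCT1;2* and the H4 genes AT3G45930 and AT3G46320. The last 2 windows differ at only 3 of 250 bases, so they are copies rather than separate occurrences. These matches describe sequence and do not show that a factor binds.

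No member was called changed after oviposition, and 1 of 105 was called after EE. Genes were compared with limma over all 9 libraries, and a call is a Benjamini-Hochberg adjusted p under 0.05 over all 17605 genes. Over all genes, 1.5% were called after oviposition, 3.02% after EE and 0.017% between EE and oviposition, where no member was called. At an unadjusted p under 0.05, 1 member passed after oviposition against 7.69% of all genes, 3 passed after EE against 13.4%, and 1 passed between the treatments against 2.85%. Members thus met these thresholds no more often than genes in general. The voom method on reads recovered from the deposited values also called 0 members after oviposition, 1 after EE and 0 between treatments.

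Direction was less even than the calls. The mean was below control for 74 members after oviposition (70.5%, against 52.3% of all genes) and for 79 after EE (75.2%, against 53.1%). The median log2 fold change of the members was −0.22 after oviposition and −0.28 after EE, beside −0.02 and −0.04 over all genes. Without control 3 these member medians were 0.00 and −0.12, without oviposition replicate 3 the first was −0.05, and without control 1 and EE replicate 2 the second was −0.13 and −0.09 in turn. Set against the control of the same number, 54, 35 and 73 of 105 members were lower in oviposition replicates 1, 2 and 3. In those of EE 68, 56 and 67 were lower. Over all 17605 genes, 8476, 9272 and 9152 were lower in oviposition replicates and 9820, 9348 and 9227 in EE replicates. Both treatments were set against the same 3 control libraries, so these shares are not separate evidence. In 1 member the oviposition and control libraries did not overlap (9.24% of all genes), in 8 members the EE and control libraries did not (18.8%), and in 5 members EE and oviposition did not (10.3%).

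The spread between replicates was wide for many of these genes. The residual SD is the SD of the libraries around their group means in log2 units. Its median was 0.661 over all members and 0.448 over all genes. It was 1.03 for A and B type cyclins, 0.751 for kinesins and 1.22 for H3.1, but 0.29 for other CDKs and 0.32 for H3.3. Levels differed too, with a median log2 CPM of −0.4 for A and B type cyclins and 4.17 over all genes. The 95% interval of a fold change reached a median of 1.81 log2 units to either side for A and B type cyclins, and 0.97 for D type cyclins. After EE, 38 of 105 members had an interval that stayed above −1, and a fall to a log2 fold change of −1 was thus within the interval of the others. After oviposition 42 members had such an interval.

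**Figure D1:**
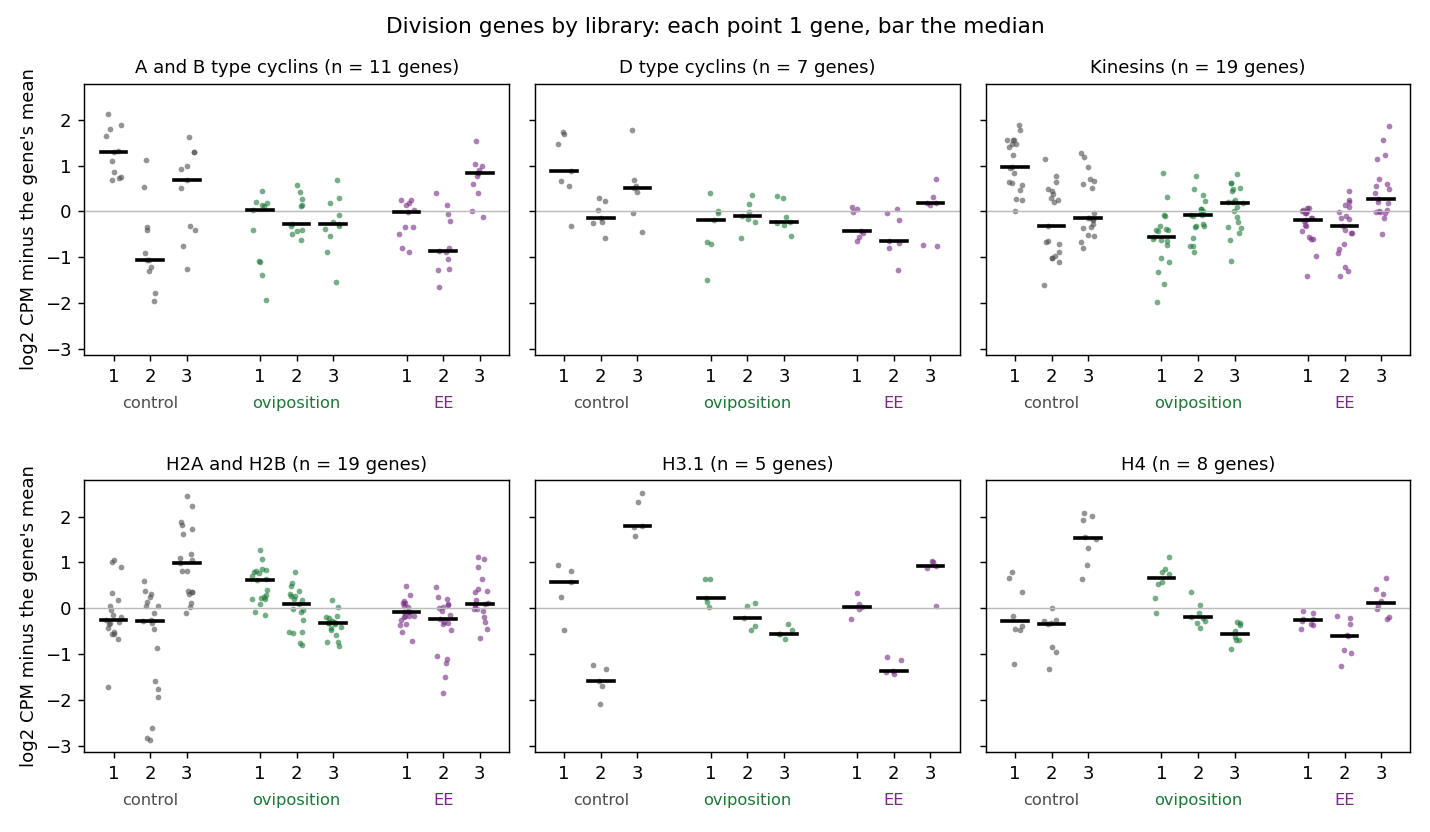
Log2 CPM of each gene minus its own mean over the 9 libraries (y axis), by group and replicate number (x axis), in 6 panels by role. Points are genes and bars medians. The A and B type cyclins stand high in control 1 and low in control 2, and H3.1 and H4 stand highest in control 3.

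A and B type cyclins, which drive S phase to mitosis, were scarce in these leaves. Their reads ranged from 8 to 584 per gene and library, with a median of 38. Per kilobase of exon, the mean log2 CPM was highest for *CYCA3;4*, at 2.23, and lowest for *CYCB1;5*, at −2.27. The low rank of *CYCB1;5* depends on the length used, 3984 exon bases against 1497 coding bases. Without a length, *CYCB2;4* had the lowest mean log2 CPM, −0.88, and *CYCB1;5* had −0.28. *CYCB1;2*, a mitotic cyclin, had log2 CPM of 0.22, −1.82 and 0.41 in controls, −0.49, −0.10 and −0.90 after oviposition and −0.85, −2.16 and 1.03 after EE. The lowest and the highest of its libraries were both EE libraries, and the groups overlapped.

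Differences between the means of A and B type cyclins were small beside this spread. The median log2 fold change over the 11 genes was −0.72 after oviposition, with 10 means below control, and −0.32 after EE, with 9 below. *CYCA3;2*, an S phase cyclin, differed most after oviposition. Its log2 CPM was 3.70, 0.84 and 2.59 in controls and 0.80, 1.58 and 1.68 after oviposition, a log2 fold change of −1.03 with SE 0.72. The control libraries covered nearly all of the oviposition range. *CYCB2;4* differed most after EE, with log2 CPM of 0.45, −1.93 and 0.74 in controls and −1.76, −2.16 and −0.04 after EE, a log2 fold change of −1.07 with SE 0.86. Quantile normalization moved the medians of the A and B type cyclins to −1.65 after oviposition and −1.34 after EE, again with no call. Leaving out control 2 moved the EE median to −1.17 and the oviposition median to −1.23, whereas without control 1 they were 0.20 and −0.09.

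Differences between libraries of the same number varied in size and sign. For oviposition and control the numbers are not shown to mark a pair. The deviations of same-numbered libraries correlated at 0.0226, 0.674 and −0.157 across genes. Crossed numbers correlated at 0.608 (control 3 with oviposition 1) and 0.435 (control 1 with oviposition 3). For EE and control, numbers 1 and 3 correlated at 0.335 and 0.318, under the 0.349 and 0.432 of crossed numbers. Differences at the same number thus only set libraries side by side. Replicate 1 of oviposition lay below replicate 1 of the control for 11 of 11 A and B type cyclins, by a median of −1.77. In replicate 2 only 3 of 11 were lower and the median was 0.91, and in replicate 3 it was 7 of 11 and −0.91. For EE the medians at numbers 1, 2 and 3 were −1.56, 0.10 and 0.49, with 11, 5 and 4 of 11 genes lower. Control 1 was the highest of all 9 libraries for 6 of these genes. Oviposition 1 was the lowest for 4, and control 2 and EE 2 for 3 each. Control libraries thus spanned more than the gap between any treated group and the control mean.

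*CDKB2;1* and *CDKB2;2*, kinases of the passage from G2 to mitosis, did not move alike. *CDKB2;1* had log2 CPM of 1.59, 0.21 and 2.04 in controls, 0.07, 1.37 and 0.42 after oviposition and −0.09, −0.19 and 1.80 after EE, with log2 fold changes of −0.66 (SE 0.69) and −0.77. *CDKB2;2* had 0.62, −1.72 and −0.35 in controls, 0.84, −0.10 and −0.04 after oviposition and −0.02, −0.22 and 0.90 after EE, with log2 fold changes of 0.72 and 0.70 (SE 0.66). In neither gene did groups separate.

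D type cyclins held the members with the greatest falls in mean. *CYCD3;1*, which keeps leaf cells in division in response to cytokinin, had log2 CPM of 2.83, 1.12 and 3.15 in controls, 1.33, 1.20 and 1.08 after oviposition and 0.89, 0.10 and 0.62 after EE. Each EE library was below each control library and each oviposition library. The log2 fold change after EE was −1.83 (95% interval −3.02 to −0.64), with an unadjusted p of 0.00692 and an adjusted p of 0.132 in limma, and it did not pass. Control 2 lay far under the other controls, and without it the log2 fold change was −2.45 with an adjusted p of 0.0101. Over all other alternatives tried the adjusted p ran from 0.0576 to 0.363. After oviposition the log2 fold change was −1.16 with an adjusted p of 0.666, and 2 of 3 oviposition libraries lay above control 2. The difference between EE and oviposition was −0.67 (SE 0.52), with an adjusted p of 0.999.

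*CYCD1;1*, another D type cyclin, was the member whose oviposition libraries did not overlap the controls. Its log2 CPM was 3.90, 2.50 and 2.90 in controls, 0.73, 2.13 and 1.68 after oviposition and 1.66, 1.54 and 2.93 after EE. The log2 fold change was −1.59 after oviposition (95% interval −2.81 to −0.36, adjusted p = 0.364 in limma) and −1.06 after EE. *CYCD4;2*, known for divisions in the stomatal lineage of the hypocotyl, had 1.90, 0.21 and 0.68 in controls, −0.55, 0.52 and 0.05 after oviposition and −0.26, −0.46 and −0.57 after EE. All EE libraries of *CYCD4;2* were below all controls, with a log2 fold change of −1.36 and an adjusted p of 0.299. Across the 7 D type cyclins the median log2 fold change was −0.38 after oviposition and −0.49 after EE, and without control 2 the medians were −0.81 and −0.91.

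The other D type cyclins were closer to control. *CYCD2;1* and *CYCD3;2* had the highest levels per length, with mean log2 CPM per kilobase of 3.28 and 3.31. *CYCD2;1* differed by 0.01 after oviposition and 0.11 after EE (SE 0.27), with a 95% interval that extended 0.62 log2 units to either side. *CYCD3;2* and *CYCD3;3*, the relatives of *CYCD3;1* in the same subfamily, differed by −0.49 and −0.38 after EE. A difference between *CYCD3;1* and its relatives was not tested.

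**Figure D2:**
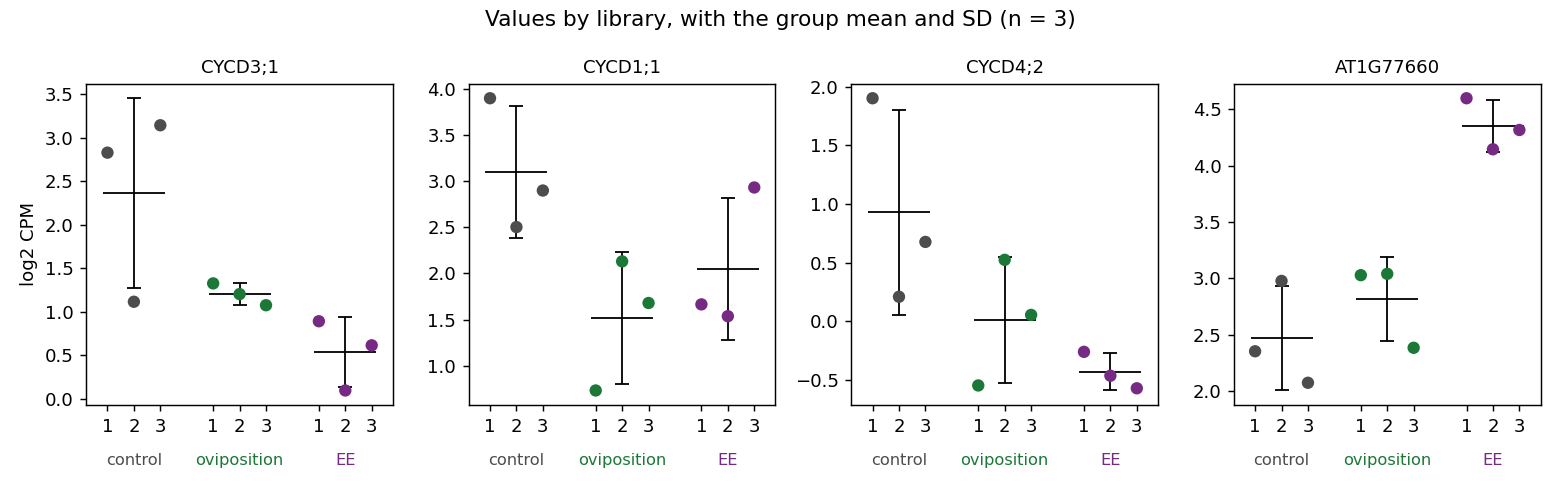
Log2 CPM (y axis) of *CYCD3;1*, *CYCD1;1*, *CYCD4;2* and AT1G77660 by group and replicate number (x axis), with a line at each group mean and bars of 1 SD (n = 3). The EE libraries of *CYCD3;1* lie between 0.10 and 0.89, under all controls, and those of AT1G77660 between 4.14 and 4.60, over all controls.

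None of the 7 CDK regulators, most of them inhibitors, was called. SIM, an inhibitor that sends trichome cells into endoreduplication, had log2 CPM of 0.72, 2.11 and 2.09 in controls, 2.37, 2.12 and 1.40 after oviposition and 1.94, 1.95 and 1.94 after EE, and its log2 fold changes were 0.32 and 0.30 (SE 0.43). Control 1 was its lowest library, and the groups overlapped. *KRP1*, an inhibitor of D type cyclin kinases, differed by 0.13 after oviposition and −0.34 after EE. *KRP7* differed most, with log2 CPM of 0.16, 1.38 and 0.93 in controls and −0.46, 0.70 and −0.81 after EE, a log2 fold change of −1.01 with an adjusted p of 0.527. *CKS1*, a small protein that docks on CDKs, had EE libraries at 4.43, 4.43 and 4.42, all below the 5.22, 4.62 and 4.45 of oviposition. Its controls, at 4.43, 4.38 and 5.33, lay on both sides of the EE values. The difference of EE from oviposition was −0.34 (SE 0.305, adjusted p = 0.999 in limma).

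**Figure D3:**
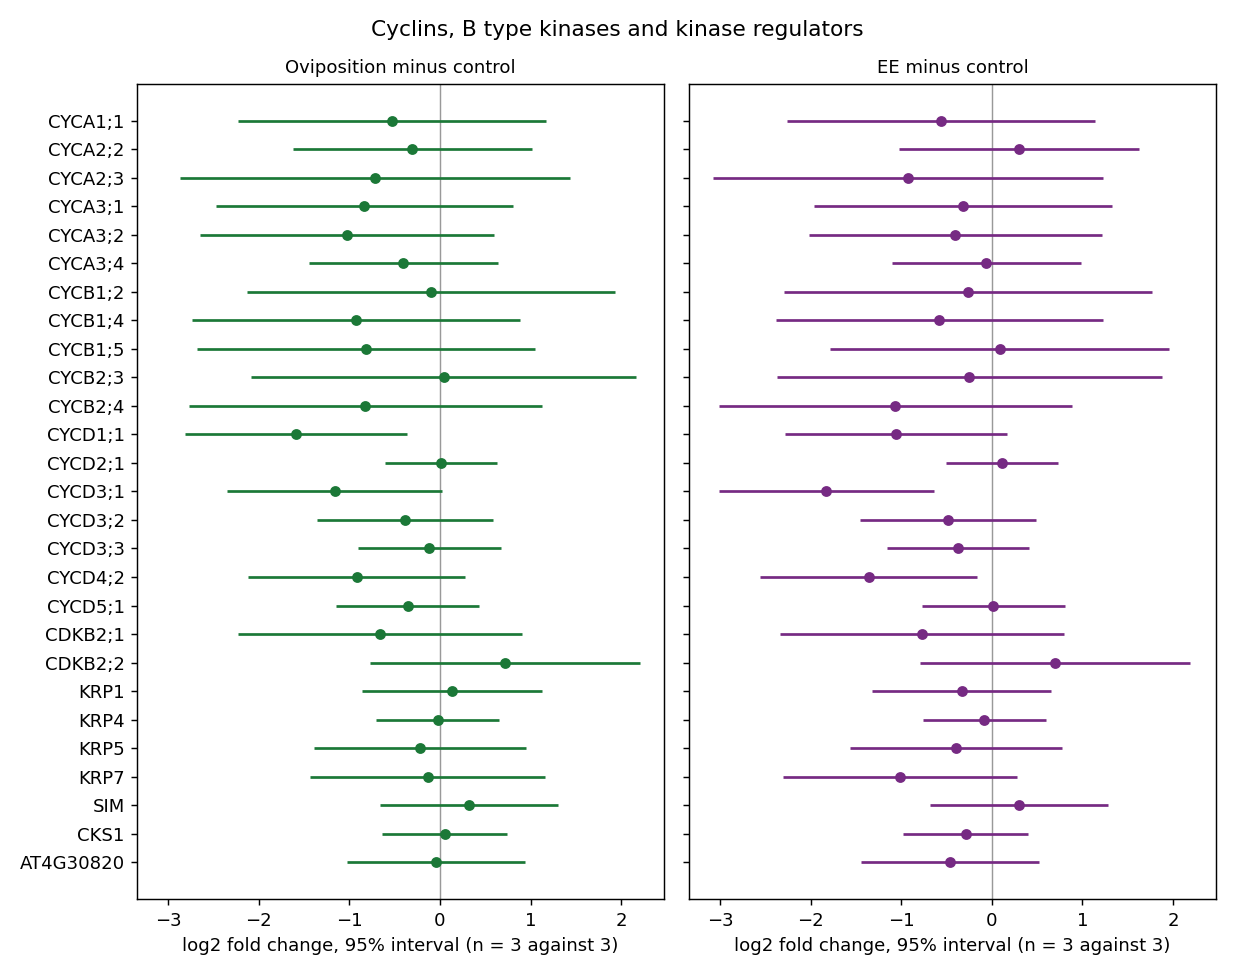
Log2 fold change against control (x axis) with its 95% interval for A, B and D type cyclins, B type CDKs and CDK regulators (y axis), after oviposition (left) and EE (right), 3 libraries against 3. Intervals leave 0 only for *CYCD1;1* after oviposition and for *CYCD3;1* and *CYCD4;2* after EE, and none of these passed the adjusted threshold.

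The other cyclins and CDKs include those that act on RNA polymerase II rather than on division. *CYCT1;3*, a T type cyclin, and *CDKC;2*, a kinase that pairs with T type cyclins, had the highest levels per length of their groups, with mean log2 CPM per kilobase of 4.70 and 4.69. *CDKC;2* differed by −0.03 after oviposition and 0.04 after EE (SE 0.23). Among the other CDKs *CDKC;1* differed most after oviposition, by 0.41, and *CDKE;1* and *CDKD1;3* after EE, by 0.33 and −0.33. The median residual SD was 0.381 for the other cyclins and 0.29 for the other CDKs. The widest spread was that of *CYCP4;1*, a P type cyclin, with log2 CPM of 3.96, −0.24 and 4.63 in controls, 3.27, −0.94 and 3.20 after oviposition and 3.41, 0.38 and 3.31 after EE. Its replicate 2 was low in all 3 groups, and its residual SD of 2.29 was the widest among members. *CYCT1;2* and *CYCT1;5* had EE libraries below all controls, with log2 fold changes of −0.57 and −0.28, not called.

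Kinesins move along microtubules, and those named POK and ATK include motors of the division plane and the spindle. The mean was below control for 19 of 19 kinesins after oviposition and for 17 of 19 after EE, with medians of −0.39 and −0.27, and none was called. Without control 1 the medians were −0.16 and 0.03. Control 1 was the highest of 9 libraries for 11 of 19 and oviposition 1 the lowest for 9. Set against control 1, all 19 were lower in replicate 1 of each treatment, with medians of −1.49 for oviposition and −1.38 for EE. At number 2 the medians were 0.22 and −0.26 (9 and 14 of 19 lower). At number 3 they were 0.23 and 0.39 (7 and 5 lower).

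Kinesin levels covered a wide range. AT2G21380 had the highest level per length, a mean log2 CPM per kilobase of 4.65, followed by *KAC1*, a kinesin of chloroplast movement, at 4.37. *POK1* and *POK2*, which mark the division plane at cytokinesis, had −3.04 and −3.11. *ATK5*, a spindle motor, showed the widest difference after oviposition, with log2 CPM of 1.14, −1.09 and 0.08 in controls and −2.39, −0.50 and 0.08 after oviposition, a log2 fold change of −0.98 with SE 1.01. *ATK3* differed most after EE, with 2.30, 2.49 and 1.01 in controls and 0.93, 1.45 and 0.86 after EE, a log2 fold change of −0.86 with SE 0.57. The EE 2 library of *ATK3* lay above the lowest control.

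The forms H3.1 and H3.3 of histone H3 allow copying of DNA to be set against chromatin upkeep, since H3.1 is placed during replication and H3.3 at any time. The 5 H3.1 genes encode 1 identical protein of 135 residues after the first methionine, as do the 3 H3.3 genes, and the forms differ at A31T, F41Y, S87H and A90L, written from H3.1 to H3.3 and counted after the first methionine. Coding sequences were 80.3% to 89.5% identical among H3.1 genes and 78.6% to 88.8% among H3.3 genes. How reads shared between copies were assigned is not given in the sources used here, and the values of single copies are uncertain to that extent. The codons from 85 to 92 are shown because they hold the last 2 differences, in capitals.
AT1G09200, H3.1: cagagcAGTgccgtcGCCgctctt
AT3G27360, H3.1: cagagtAGTgcagtcGCAgctctt
AT5G65360, H3.1: cagagcAGCgccgtcGCAgcactt
AT4G40040, H3.3: cagagcCATgctgtgCTTgcactc
AT5G10980, H3.3: cagagtCACgcggtgTTAgctctt

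H3.1 was the more variable form. AT1G09200 had log2 CPM of 2.93, 1.31 and 5.91 in controls, 4.04, 2.92 and 3.06 after oviposition and 3.72, 2.27 and 4.40 after EE. Its lowest and highest libraries were both controls. AT3G27360 differed most in mean, with 2.095, −0.04 and 3.60 in controls, 1.91, 1.05 and 0.60 after oviposition and 1.03, −0.13 and 1.33 after EE, and log2 fold changes of −0.69 and −1.14 (SE 0.86). The median over the 5 genes was −0.47 after oviposition and −0.38 after EE, but 0.26 and 0.41 without control 3 and −1.26 and −1.35 without control 2. Control 3 was the highest of all libraries for 5 of 5 H3.1 genes and control 2 the lowest for 4.

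H3.3 genes had higher levels and a narrow spread. AT4G40040 had log2 CPM of 7.44, 8.31 and 8.32 in controls, 8.71, 8.67 and 8.19 after oviposition and 8.28, 8.34 and 8.19 after EE. AT5G10980 had 5.58, 6.61 and 6.33 in controls and 6.69, 6.71 and 6.75 after EE, without overlap, and a log2 fold change of 0.54 with an adjusted p of 0.445. The median of the 3 genes was 0.41 after oviposition and 0.24 after EE, and these rested on control 1, without which they were 0.11 and −0.05. Summed over genes on the CPM scale, H3.1 made up 9.92%, 1.82% and 19.0% of H3.1 and H3.3 together in controls, 5.74%, 3.67% and 4.46% after oviposition and 6.20%, 2.45% and 10.6% after EE. The control range covered every treated library.

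**Figure D4:**
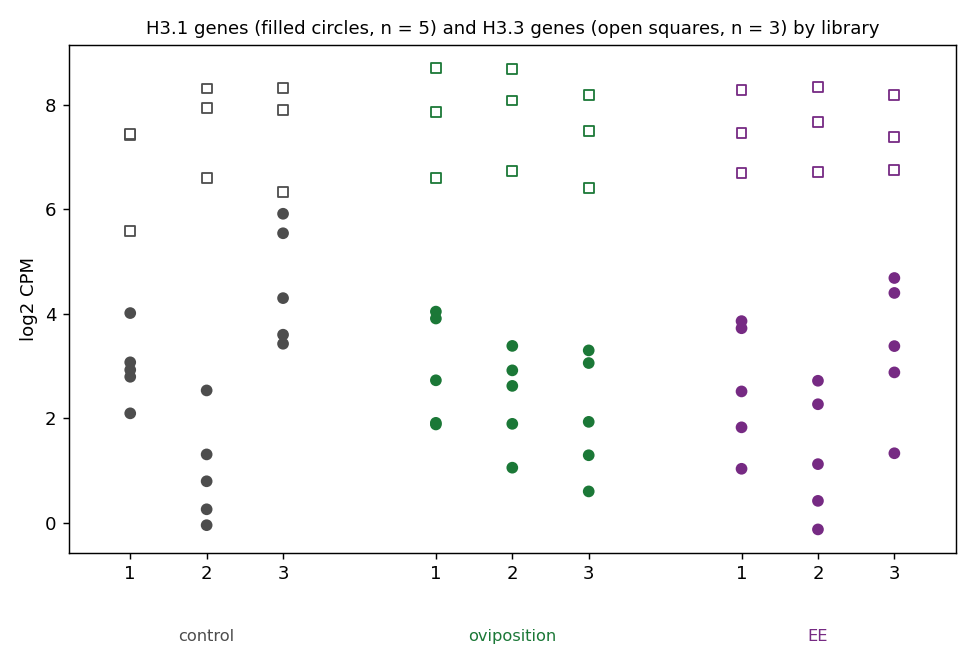
Log2 CPM (y axis) of the 5 H3.1 genes (filled circles) and the 3 H3.3 genes (open squares) by group and replicate number (x axis). H3.3 genes lie between 5.58 and 8.71, and H3.1 genes reach from −0.13 to 5.91, low in control 2 and EE 2 and high in control 3.

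The 8 H4 genes encode 1 identical protein, and their coding sequences were 78.8% to 98.1% identical, so values of near copies such as AT3G45930 and AT3G46320 are uncertain. All 8 means were below control after EE and 5 of 8 after oviposition, with medians of −0.47 and −0.31, and none was called. The H4 genes had a median pairwise correlation of 0.811 across the 9 libraries, so the 8 means are not separate evidence. Without control 3 these medians were −0.01 and 0.27. *HIS4* differed most after EE. Its log2 CPM was 4.84, 3.24 and 6.12 in controls, 4.98, 3.76 and 3.50 after oviposition and 3.85, 3.21 and 4.17 after EE, a log2 fold change of −0.99 with SE 0.68. The control libraries of *HIS4* reached both below and above nearly all treated ones. AT5G59690 had the highest level per length, with a mean log2 CPM per kilobase of 5.45, and differed by −0.25 and −0.24. AT3G45930 differed most after oviposition, by −0.73 (SE 0.71).

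No H2A or H2B gene was called. The mean of 7 of 11 H2A genes was below control after oviposition and of 9 after EE, with medians of −0.07 and −0.19 that became 0.37 and 0.25 without control 3, 0.11 without oviposition replicate 3 and 0.04 without EE replicate 2. *HTA9*, an H2A.Z variant placed at gene starts, had the highest level per length (mean log2 CPM per kilobase 6.38) and differed by 0.24 and 0.15. *HTA11*, of the same variant class, had log2 CPM of 2.36, −1.53 and 3.74 in controls, 1.90, 0.78 and 0.96 after oviposition and 1.58, −0.54 and 2.42 after EE. *HTA6*, an H2A.W variant of heterochromatin, had 4.09, 0.33 and 5.43 in controls and 3.31, 1.70 and 4.26 after EE. Control 2 was the lowest library of both. *HTA2*, a canonical H2A, had EE libraries at 4.16, 4.09 and 4.12, all below controls at 4.21, 4.31 and 5.51, with a log2 fold change of −0.56 and an adjusted p of 0.698. *HTA10*, also canonical, differed by −0.33 after oviposition (SE 0.47).

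The mean of 3 of 8 H2B genes was below control after oviposition and of 6 after EE, with medians of 0.02 and −0.29. Without control 3 these were 0.49 and 0.20, and the oviposition median was −0.22 without control 1 or 2 and −0.19 without oviposition replicate 1. Among them AT2G28720 had the highest level per length, a mean log2 CPM per kilobase of 7.06, and differed by −0.09 after oviposition and −0.52 after EE (SE 0.30). AT3G09480 had the widest difference, with log2 CPM of −1.64, −0.80 and 0.88 in controls, 0.84, 0.87 and −0.11 after oviposition and 0.13, 0.31 and 0.17 after EE. Its log2 fold changes were 1.05 and 0.72 (SE 0.65), with groups that overlapped. *HTR12*, the centromeric H3, differed by −0.48 and −0.07, and the linker histone *HIS1-3*, known from drought response, by 0.11 and 0.44.

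Control 3 was the highest library for 28 of 36 core histone genes. Set against control 3, oviposition 3 was lower for 35 of 36 core histones with a median of −1.83, and EE 3 for 33 with a median of −0.90. At number 1 the medians were 0.52 and 0.10, and at number 2 they were 0.44 and 0.08. The numbers are not shown to mark a pair for oviposition and control, so these are not effects within an experiment. Markers of leaf mesophyll were also uneven. The summed level of the 7 of 7 mesophyll markers in the table (genes of the Rubisco small subunit, Rubisco activase and light-harvesting proteins) was 12500 to 121000 CPM in controls, 13100 to 79500 after oviposition and 10600 to 39500 after EE, highest in control 3 and lowest in the replicate 2 libraries of their groups. The factor that scales CPM, the fitted library size over the reads recovered, was 0.70 in control 3 and 1.13 to 1.20 in the replicate 2 libraries. The part of either in the histone values was not tested.

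The only member called was AT1G77660, a gene whose description, an H3 K4-specific methyltransferase of the SET7/9 family, matched the words of the rule. Its log2 CPM was 2.36, 2.98 and 2.08 in controls, 3.03, 3.04 and 2.39 after oviposition and 4.60, 4.14 and 4.32 after EE. All EE libraries were above all others, while oviposition and control overlapped. The log2 fold change after EE was 1.88 (95% interval 1.18 to 2.58, SE 0.31, adjusted p = 0.0128 in limma) and after oviposition 0.35 (adjusted p = 0.998). The difference of EE from oviposition was 1.53, with an adjusted p of 0.362, and it did not pass. Without EE replicate 1 or 3 the adjusted p after EE was 0.083 or 0.0671. Of 3 more genes with this family name, AT4G17080 had EE libraries above all controls (log2 fold change 0.51, adjusted p = 0.533), AT2G35170 differed by 0.26, and AT1G21920 by 1.07 with SE 0.91.

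Genes of the cycle outside the rule were read alongside. Of 17 genes of DNA replication and S phase, 16 were in the table and none was called in any comparison. All 16 means were below control in both treatments, with medians of −0.61 and −0.71. Across the 9 libraries these genes had a median pairwise correlation of 0.887, so the 16 means are not separate evidence. *ORC1B*, a subunit of the origin recognition complex, differed most after oviposition, with log2 CPM of 2.17, −1.15 and 1.38 in controls and −1.16, −1.22 and 0.18 after it. *ORC2*, another subunit, differed most after EE, with 1.62, −1.29 and 1.32 in controls and 0.01, −1.83 and 0.54 after EE, a log2 fold change of −0.97. In this list control 1 was the highest library for 13 of 16 genes and control 2 the lowest for 11. Set against the control of the same number, the medians at 1, 2 and 3 were −1.57, 0.96 and −1.35 for oviposition. For EE they were −1.61, 0.21 and −0.78.

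Of 13 genes of mitosis and cytokinesis outside the rule 8 were in the table, with none called and medians of −0.55 after oviposition and −0.50 after EE. *MAD2*, of the spindle checkpoint, differed most after EE, by −1.14. Of 9 G1/S regulators 7 were in the table beside *CKS1*, none was called, and the medians were −0.21 and 0.01. *CKS2*, a relative of *CKS1*, differed most, by −0.47 after oviposition. Of 9 endoreduplication genes 4 were in the table beside SIM, none was called, and *SMR1*, an inhibitor related to SIM, had 2.33, 5.21 and 4.20 in controls, 4.87, 5.01 and 3.74 after oviposition and 3.45, 5.04 and 3.68 after EE. Of 11 markers of the stomatal lineage and meristems, only *FAMA*, *ANT* and *GIF1* were in the table. Their summed level was 23.5 to 28.0 CPM in controls, 14.3 to 18.5 after oviposition and 12.4 to 18.1 after EE, and neither treated group overlapped the controls in this sum, as was true of 9.24% and 18.8% of single genes. *FAMA*, a factor of guard cell formation, made up most of the sum, with log2 fold changes of −0.63 after oviposition and −0.58 after EE. Its oviposition libraries, at most 3.91 on the log2 CPM scale, lay below all controls. Its EE replicate 2 (3.98) lay above control 1 (3.96). *GIF1* differed by 0.34 after oviposition and −0.58 after EE, and no gene of the 3 was called. The part of these cells in the levels of division genes was not tested. *ANT*, a factor that sustains growth of young organs, had 2.62, 1.40 and 1.80 in controls. It had 0.94, 1.12 and 0.02 after oviposition and 1.06, 0.58 and 0.79 after EE, all below the controls. Its log2 fold changes were −1.25 and −1.13, with adjusted p of 0.402 and 0.301 in limma.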

How the data were processed

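RNA from leaves of 3 independent experiments was sequenced from stranded mRNA libraries. According to their methods and notes, the authors mapped reads to TAIR10 with STAR, normalized counts by the trimmed mean of M-values and library size, and deposited log2 CPM. Their notes also name cutadapt 1.5, HTSeq and limma 3.2. Deposited log2 values gave whole reads for 17605 of 17605 genes per library (tolerance 0.01 reads), with 0.5 added before the logarithm, and a scaling that gives all libraries the same median, which no source names. The table of the authors' own fold changes and p-values was not used.

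The values were fitted with limma 3.58.1 (R 4.3.3), 1 mean per group and a mean-variance trend over all 9 libraries, and p-values were adjusted over all genes. The fit was tested on simulated data with independent noise in each library. The real libraries correlated across groups, so this does not measure how many changes were missed here. Members and lists were chosen with earlier results of these data known. Named genes are those called, the highest and most changed of each role, H3.1 and H3.3, and the most changed of each list. *CYCB1;2*, *CYCB1;5*, *CYCD3;2*, *CYCD3;3*, *HTA6*, *HTA11*, *HTR12*, *KAC1*, *POK1*, *POK2* and AT2G35170 were added after their values were seen. So were members whose libraries in a treatment did not overlap the controls. Same-numbered libraries correlated at 0.335, 0.775 and 0.318 for control with EE and 0.553, 0.764 and 0.526 for oviposition with EE. For control with oviposition they correlated at 0.0226, 0.674 and −0.157. Control 1 with number 3 and control 3 with number 1 correlated at 0.349 and 0.432 for EE, and at 0.435 and 0.608 for oviposition. A replicate block was therefore an alternative only. Levels per length used RefSeq exons, pooled over transcripts, which differ from the genes of the deposited table. Of 17512 genes matched between them, 7074 shared a start or an end. AT2G28720 has 1001 RefSeq exon bases, but its deposited gene runs from 12326978 to 12327678. Levels per length are thus approximate. Alternatives were no trend, vooma weights, the block, only the groups compared, quantile normalization, 1 CPM added, a filter at a mean of 0, voom, each library left out and, added later, weights per library, the scaling undone and the block with voom.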

Additional observations from a re-analysis of the deposited data

How the results depend on the processing

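Calls after oviposition stayed at 0 of 105 members in every alternative. After EE the 1 raised member (AT1G77660) was lost at an adjusted p under 0.01 and with the division groups alone, which leave it out (0 in each), and the count ran from 0 to 1 when each library was left out; without EE replicate 1 or 3 its log2 fold change was 1.76 or 1.90. Lowered members after EE ran from 0 to 1, the 1 being *CYCD3;1* without control replicate 2 (−2.45). With weights per library, chosen after seeing the data, 1 member was raised in EE against oviposition. The replicate block changed no call: 0 members after oviposition and 1 raised after EE. The correlations bear out its pairing for EE with oviposition. For EE with control they do so only at number 2, since control 1 correlated at 0.349 with EE 3 and control 3 at 0.432 with EE 1. Quantile normalization gave medians of −1.65 (oviposition) and −1.34 (EE) for A and B type cyclins and 0.21 (EE) for the 7 genes caught by wording, whose oviposition median was −0.06 with weights per library. With these weights AT1G21920 reversed to −0.10 after oviposition. When each library was left out, medians ran from −0.32 to 0.00 (oviposition) and −0.50 to −0.09 (EE) for all members, from −1.17 to 0.20 (EE) for A and B type cyclins, from −0.81 to −0.13 (oviposition) and −0.91 to −0.19 (EE) for D type cyclins, from 0.11 to 0.63 and −0.05 to 0.39 for H3.3, and from 0.09 to 0.44 and 0.26 to 0.55 for the genes caught by wording. *CYCB1;2* ran from −0.81 to 0.30 after oviposition and from −1.11 to 0.49 after EE, changing sign in each. Median centring could not change a value, because all libraries have the same median. A and B type cyclins had few reads, and their 95% intervals include 0 for 11 of 11 genes in both treatments, as do those of core histones, with more reads, for 36 of 36. The part of depth was not tested.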
